A study of Sus scrofa with 5 samples.

Results

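The miR-15/16 family is a group of microRNAs (miRNAs) that share a seed, the short stretch near the start of the mature miRNA that pairs with target mRNAs. Members were taken by name, as every listed pig miRNA called miR-15a, miR-15b, miR-16, miR-195, miR-497 or miR-424 with any arm suffix. This gave 7 of the 411 names in each table: ssc-miR-15a, ssc-miR-15b, ssc-miR-16, ssc-miR-195, ssc-miR-497, ssc-miR-424-5p and ssc-miR-424-3p (the pig prefix ssc- is left out below). The 3p arm comes from the opposite strand of the hairpin and was kept because the rule is by name.

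The samples were exosomes, small vesicles shed by cells, collected from pigs of the Rongchang breed at postnatal day 180. Serum, plasma, semen, urine and bile were each sequenced as 1 small RNA library, and no treatment or genotype was labelled. The labels do not state whether a library came from 1 animal or a pool, or whether animals were shared between fluids. Every difference below is therefore a difference between 2 libraries, and every interval is a 95% interval for counting error only.

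In mammals the family restrains the cell cycle and cell survival: cyclin D1, cyclin E1, CDK6 and BCL2 are known targets, and loss of miR-15a and miR-16 is a recurrent lesion of human chronic lymphocytic leukaemia. The members come from separate clusters. In the RefSeq annotation of Sscrofa11.1 the gene of miR-15a lies next to one gene of miR-16, the gene of miR-15b lies next to the other inside SMC4, a condensin subunit gene, and the genes of miR-195 and miR-497 lie next to each other inside a long noncoding RNA. The mature miR-16 count can hold products of both of its genes. miR-16 is abundant in blood cells, red cells included, and is often used as a reference miRNA in serum and plasma.

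The libraries held 26522 miRNA counts in urine and 473168 to 2284926 in the other fluids. No count from 1 to 9 was listed in any library, so a value listed at 0 may stand for up to 9 reads. Levels are given as CPM, a miRNA's count divided by the library's miRNA counts and multiplied by 1000000. A count of 10 equals 21.1 CPM in serum, 8.67 CPM in plasma, 4.38 CPM in semen, 377 CPM in urine and 5.98 CPM in bile. Markers of the fluids were present, but not all were limited to them. The erythroid miR-451 had 40127 counts in serum (84805 CPM), 4775 in plasma (4139 CPM), 124 in urine (4675 CPM) and 6896 in bile (4121 CPM). The germ cell miR-34c had 604 counts in semen and was listed at 0 elsewhere. The kidney miR-204 was highest by CPM in urine (4713 CPM), though its counts were 125 in urine, 156 in semen and 260 in bile. The hepatocyte miR-122 had 91481 counts in bile (54673 CPM) and 11836 in plasma (10259 CPM).

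The family was a small part of every library and was led by miR-16 wherever it was listed. Serum held 1316 family counts (0.278% of its miRNA counts, interval 0.263 to 0.294), plasma 42 (0.00364%, 0.00262 to 0.00492), semen 265 (0.0116%, 0.0102 to 0.0131) and bile 666 (0.0398%, 0.0368 to 0.0429). All 7 names were listed at 0 in urine. Of the 7 names, 3 were listed above 0 in serum, 1 in plasma, 5 in semen and 5 in bile, and miR-424-3p was at 0 in every library. Serum thus carried the most family counts from fewer listed names than semen or bile. The number of names listed depends on depth, since 10 counts are 21.1 CPM in serum, 4.38 in semen and 5.98 in bile. Of the names listed in semen or bile but not in serum, only miR-195 in bile (49.0 CPM) lay above the serum limit.

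miR-16 was listed with 1221 counts in serum (2580.5 CPM), 42 in plasma (36.4 CPM), 208 in semen (91.0 CPM), 0 in urine and 525 in bile (314 CPM). It ranked 42 of the 180 miRNAs listed above 0 in serum, 112 of 161 in plasma, 89 of 174 in semen and 67 of 179 in bile. The order was serum, bile, semen and plasma, with counting intervals that did not overlap. The last places changed with the scaling. Plasma stood above semen with TMM or DESeq2 size factors, which scale libraries by the bulk of their miRNAs, and below it on RPM, the authors' own scaling to a library total larger than the miRNA counts. By CPM urine could not be placed beyond lying under its level of 10 counts; on RPM it lay below the other 4 fluids.

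**Figure D1:**
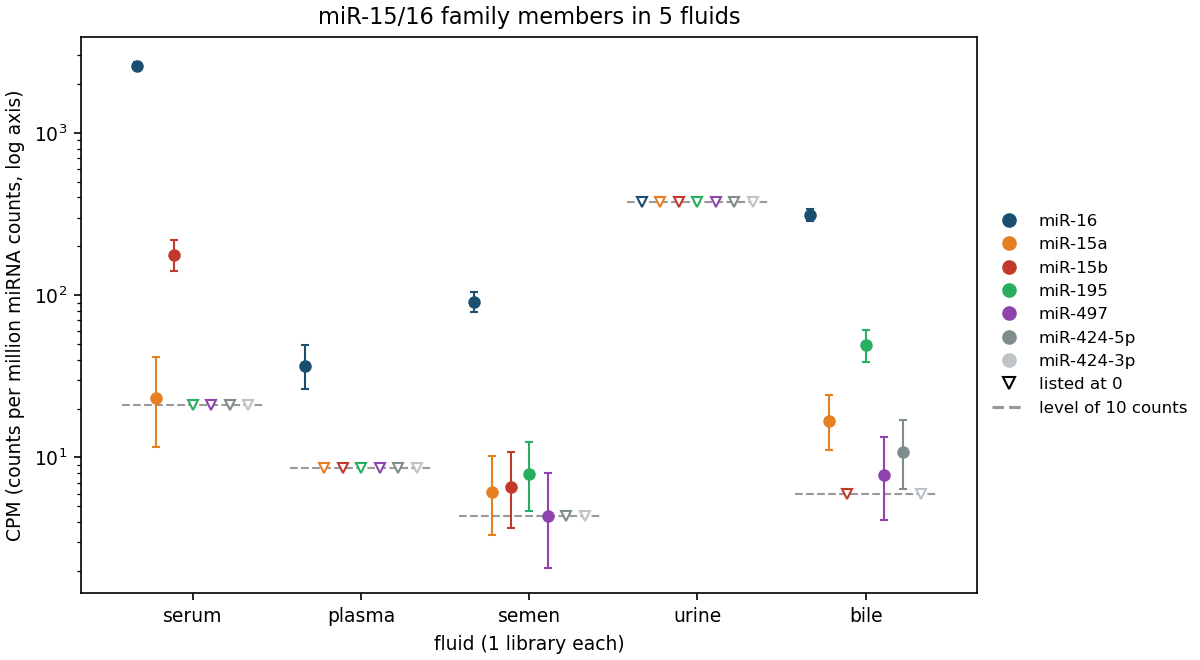
CPM of the 7 names (log axis) in each of the 5 fluids, 1 library each. Filled points carry exact 95% counting intervals, and open triangles mark names listed at 0, drawn at the level of 10 counts (dashed), below which nothing was listed. miR-16 is the highest point in serum, plasma, semen and bile, and the urine limit of 377 CPM lies above the miR-16 level of bile.

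miR-16 was the only member that reached 100 counts in a library, the minimum set for comparing 2 libraries. A miRNA was called at a CPM ratio of 2 or more in either direction, with counts under 10 raised to 10. By CPM miR-16 was called in all 6 pairs of fluids compared, as were large parts of all miRNAs tested. Other members are counted below in the direction that miR-16 took by CPM, and any call in the other direction is named.

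Serum against plasma gave 2580.5 against 36.4 CPM for miR-16, a ratio of 70.9 (52.1 to 98.9). By the same rule 73.1% of the 119 miRNAs tested were higher in serum. The median log2 ratio of the 109 above 0 in both was 2.77, and miR-16 lay 3.37 above it, in place 10 of 119 from the serum end. This distance from the median does not change with the scaling of the libraries. The ratio itself did, and was 7.18 with TMM, 19.8 by RPM and 6.96 with DESeq2 size factors.

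Serum against semen gave 2580.5 against 91.0 CPM, a ratio of 28.4 (24.5 to 33.0), where 51.1% of 141 miRNAs were higher in serum. miR-16 lay 3.59 above the median log2 ratio of 1.24 (of the 114 above 0 in both), in place 32 of 141 from the serum end. Serum against bile gave 2580.5 against 314 CPM, a ratio of 8.22 (7.42 to 9.13), where 53.6% of 138 were higher in serum. Here miR-16 lay 1.71 above a median of 1.33, in place 42 of 138. Its lead in serum over bile was the smallest of the 3 by ratio and by distance from the median. On the authors' RPM it was 5.99 times semen and 2.32 times bile.

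Serum against urine could be bounded only. With urine at 10 counts, miR-16 was at least 6.84 times higher in serum (3.71 at the lower counting end), and 38.1% of 105 miRNAs were higher in serum. At the serum share urine would have held 68.4 counts of miR-16. At the bile share it would have held 8.32, at the semen share 2.41 and at the plasma share 0.966, all of them under 10. The listed 0 in urine therefore separates urine from serum, and at this depth a difference from bile, semen or plasma was not detectable by CPM. On the authors' RPM, which scales to that larger total, the bile level would have given 537 counts in urine, the semen level 208 and the plasma level 62.9, all above 10. With TMM the bile level would have given 18.0, the plasma level 10.8 and the semen level 4.79. Whether urine held less miR-16 than these 3 fluids thus depends on the scaling.

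**Figure D2:**
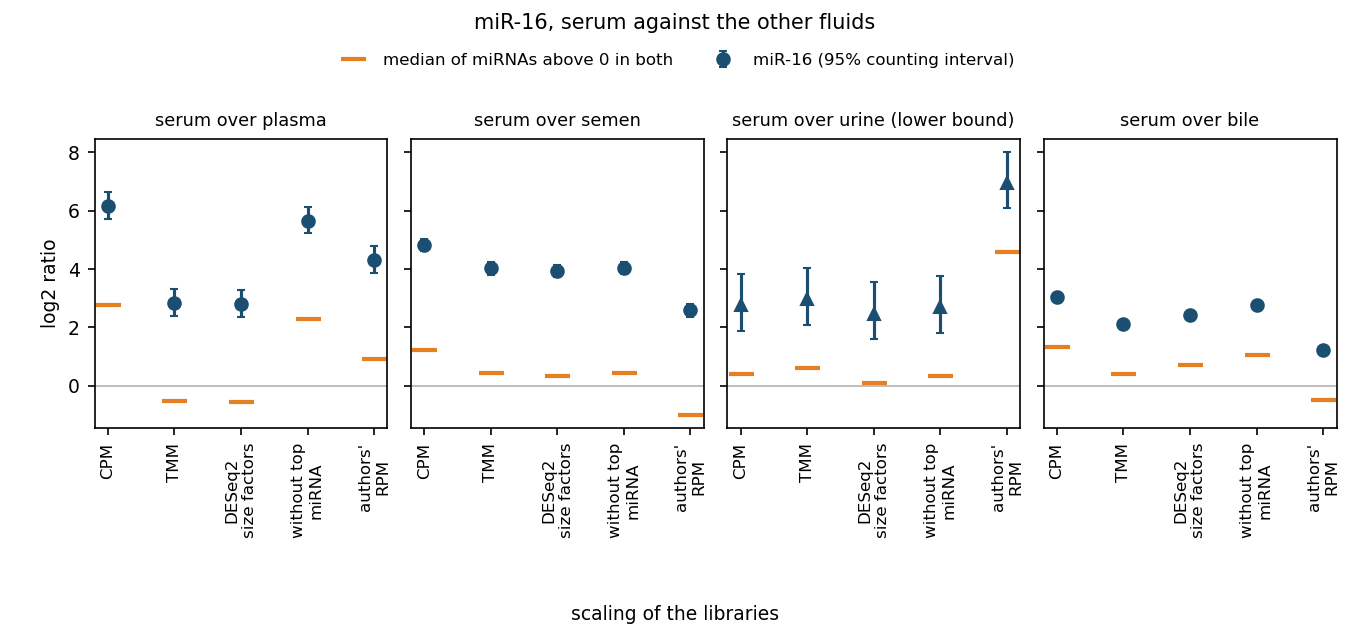
log2 ratio of miR-16 in serum over each other fluid under 5 scalings of the libraries, with 95% counting intervals; triangles for urine are lower bounds. The bars are the median of all miRNAs tested and above 0 in both libraries. miR-16 stays above the median by the same distance in each panel (3.37, 3.59, at least 2.36 and 1.71) while both move with the scaling.

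The remaining pairs set the lower fluids against each other. Plasma against semen gave 36.4 against 91.0 CPM, a ratio of 0.400 (0.280 to 0.559), where 55.3% of 141 miRNAs were lower in plasma. miR-16 lay 0.10 from the median log2 ratio of -1.43, so it differed about as the bulk of the miRNAs did, and its ratio turned to 2.26 with TMM and 2.19 with DESeq2 size factors. Semen against bile gave 91.0 against 314 CPM, a ratio of 0.290 (0.246 to 0.341), where 37.7% of 138 were lower in semen. The median there was 0.01 and miR-16 lay 1.79 below it.

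With the minimum lowered to 10 counts, all 3 members tested (miR-16, miR-15b and miR-15a) were at least 2-fold higher in serum than in plasma, where 71.8% of 202 miRNAs were. Between serum and semen, 3 of 5 members were higher in serum, where 56.4% of 211 miRNAs were. Between serum and bile, 2 of 6 (miR-16 and miR-15b) were higher in serum, where 56% of 209 were, and 1 of 6, miR-195, was lower in serum, where 20.1% were. The bound for miR-195 was a ratio of at most 0.431 with serum at 10 counts (0.834 at the upper counting end). These counts rest on few members. In the other pairs 1 of 3 was higher in serum than in urine (21.2% of 189), 1 of 5 lower in plasma than in semen (41.5% of 217) and 4 of 6 lower in semen than in bile (37.5% of 208). Some members could not have been called, because a listed 0 was raised to 10 counts. They were miR-15a and miR-15b against urine, and all but miR-16 between plasma and semen. Others were miR-195 and miR-497 between serum and semen, and miR-497 and miR-424-5p between serum and bile. Between semen and bile miR-15b could not be called lower in semen. No lack of difference can be read from these members.

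The order of the less abundant members differed between fluids. miR-15b, made beside one copy of miR-16, had 84 counts in serum (178 CPM) and 15 in semen (6.57 CPM), and was listed at 0 in plasma, urine and bile. miR-15a, made beside the other copy, had 11 counts in serum (23.2 CPM), 14 in semen (6.13 CPM) and 28 in bile (16.7 CPM), and was listed at 0 in plasma and urine. Between serum and semen miR-15b differed by a ratio of 27.04 (15.5 to 50.4), close to that of miR-16, and each held about as many miR-16 counts per miR-15b count, 14.5 (11.7 to 18.4) in serum and 13.9 (8.21 to 25.2) in semen. Serum therefore held mostly miR-15b of this pair, semen held both at a similar level, and bile listed miR-15a alone. How the authors counted reads that match several members is not stated, so the split between these close relatives is uncertain.

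The ratio of miR-15b to miR-15a within a library does not depend on how libraries are scaled. It was 7.64 in serum (4.06 to 15.9), 1.07 in semen (0.482 to 2.40), and at most 0.357 in bile with miR-15b at 10 counts (0.758 at the upper counting end). The serum interval did not overlap the other 2. At its serum level miR-15b would have given 297 counts in bile by CPM, 83.7 on the authors' RPM and 156 with TMM, against a listed 0. In plasma the same level would have given 205, 57.2 and 20.7 counts, so plasma lay below serum for miR-15b beyond what the minimum of 10 can hide. Against the semen level, which would have given 7.57 counts in plasma by CPM, 10.01 on RPM and 1.34 with TMM, the 0 in plasma does not separate the libraries. For miR-15a in plasma the serum level gave 26.8 counts by CPM, 7.49 on the authors' RPM and 2.72 with TMM, so that under the last 2 scalings its 0 could come from the minimum of 10.

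miR-195 and miR-497, cluster partners, were listed in semen and bile and in neither blood fluid. In mice miR-195 is known for arresting the cell cycle of heart muscle cells after birth. miR-195 had 18 counts in semen (7.88 CPM) and 82 in bile (49.0 CPM), a semen to bile ratio of 0.161 (0.0908 to 0.270). miR-497 had 10 counts in semen (4.38 CPM) and 13 in bile (7.77 CPM), a ratio of 0.563 (0.221 to 1.39) that did not separate the libraries. Within the pair, miR-195 was 1.80 times miR-497 in semen (0.788 to 4.37) and 6.31 times in bile (3.49 to 12.4), and these intervals overlap.

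After miR-16, miR-195 was the second member of bile, with 0.156 counts per miR-16 count (0.122 to 0.197), against 0.0865 in semen (0.0503 to 0.140). In serum that ratio was at most 0.00819 (0.0151 at the upper counting end). At its bile level miR-195 would have given 23.2 counts in serum by CPM, 82.3 on the authors' RPM and 44.2 with TMM, so serum lay below bile beyond what the minimum of 10 can hide. In plasma the expected counts were 56.5, 56.0 and 10.9. At its semen level miR-195 would have given 3.73 counts in serum by CPM, 17.6 on RPM and 6.51 with TMM, and in plasma 9.09, 12.01 and 1.61, so a difference of either blood fluid from semen depends on the scaling. For miR-497 the bile level gave 3.68 counts in serum by CPM, 13.1 on RPM and 7.001 with TMM, and 8.96, 8.88 and 1.73 in plasma. Only 13.1 passed 10, and it rests on 13 counts in bile, so counting error could bring it under 10. The 0 of miR-497 could thus come from the minimum of 10 in serum and in plasma.

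**Figure D3:**
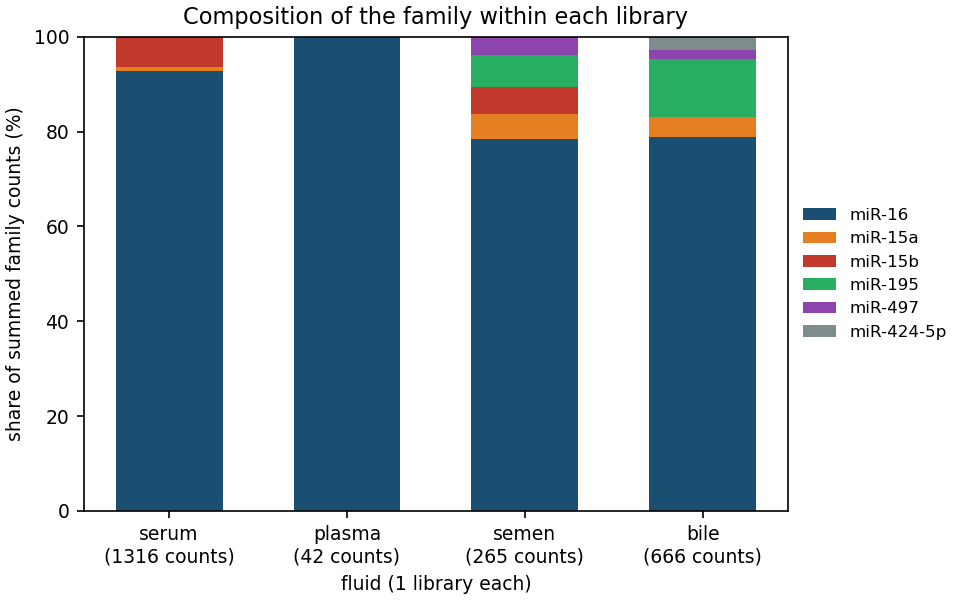
Share of each member in the summed family counts (%) of the 4 libraries that listed any member. miR-16 makes up 92.8% in serum, 100% in plasma, 78.5% in semen and 78.8% in bile; the remainder is mostly miR-15b in serum and mostly miR-195 in bile.

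Within the family, miR-16 took 92.8% of counts in serum (91.2 to 94.1), 78.5% in semen (73.1 to 83.3) and 78.8% in bile (75.5 to 81.9). In plasma it took all 42 counts, but with the 6 names at 0 taken as 10 counts each its share would be 41.2%, so the plasma composition is not resolved. miR-15b took 6.38% of the family in serum (5.12 to 7.84) and 5.66% in semen (3.20 to 9.16). miR-195 took 6.79% in semen (4.08 to 10.5) and 12.3% in bile (9.91 to 15.1). In semen miR-15a, miR-15b, miR-195 and miR-497 each took between 3.77% and 6.79%, on 10 to 18 counts each, with overlapping intervals.

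miR-424-5p, a member linked in humans to monocyte differentiation, was listed in bile alone, with 18 counts (10.8 CPM). At that level semen would have held 24.6 counts by CPM, 18.4 on the authors' RPM and 26.8 with TMM, and none was listed. In serum the expected numbers were 5.09, 18.1 and 9.69, in plasma 12.4, 12.3 and 2.39, and in urine 0.285, 18.4 and 0.617. Whether those expected numbers passed 10 depended on the scaling. In humans miR-424 is made from one cluster with miR-503 and the miR-450 and miR-542 hairpins. Of 8 names listed for these partners, 3 were above 0 in urine (88 counts, 3318.0 CPM) and the same 3 in bile (140 counts, 83.7 CPM). They were miR-450c-5p, with 55 counts in urine and 34 in bile, miR-450b-5p with 21 and 39, and miR-542-3p with 12 and 67. Plasma listed miR-450b-5p alone, with 14 counts, and serum and semen listed none. miR-503, which also carries a seed close to that of miR-16, was at 0 in all 5 libraries.

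miR-103 and miR-107, whose seed is that of the family moved by 1 base, are known in mice for their effect on insulin sensitivity. miR-103 was above miR-16 in every fluid: it had 3096 counts in serum and 99 in plasma, and outside blood it had 2170 in semen, 3603 in bile and 27 in urine. The ratio of miR-103 to miR-16 was 2.54 in serum (2.37 to 2.71) and 2.36 in plasma (1.63 to 3.47), against 10.4 in semen (9.04 to 12.1) and 6.86 in bile (6.26 to 7.54). In urine it was at least 2.70 (1.27 at the lower counting end). The serum and plasma intervals overlapped, and semen and bile lay above both. miR-107 was listed in serum (49 counts), semen (92) and bile (255), below miR-103 in each.

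**Figure D4:**
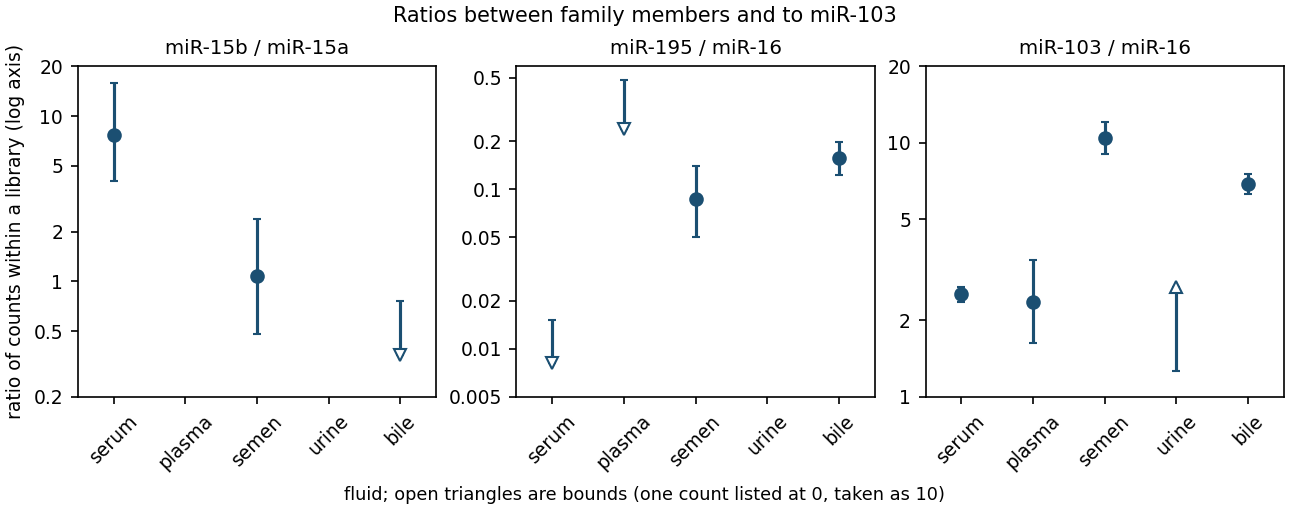
Ratio of counts within a library (log axes) for miR-15b to miR-15a, miR-195 to miR-16 and miR-103 to miR-16, by fluid, with exact 95% counting intervals. Open triangles are bounds with the miRNA listed at 0 taken as 10 counts and carry only the counting limit that weakens the bound. The first ratio is highest in serum (7.64), and the third is higher in semen (10.4) and bile (6.86) than in serum (2.54) and plasma (2.36). The second is bounded only in serum (at most 0.00819) and plasma (at most 0.238), so these 2 fluids cannot be ordered. In serum it lies below semen and bile.

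miR-16 was set beside other miRNAs commonly used as references in body fluids. Between the highest and lowest of serum, plasma, semen and bile it differed by 6.15 on the log2 scale. miR-191 differed by 4.25, miR-24-3p by 4.97, miR-103 by 6.25, let-7a by 6.28, miR-26a by 6.74 and miR-423-5p by 7.47. The median over the 104 miRNAs listed above 0 in these 4 libraries was 5.02, and miR-16 was in place 72 of 104 from the steadiest. This order changed with the scaling. With TMM miR-16 differed by 4.02, against 1.37 for miR-191, 2.95 for miR-103, 3.78 for let-7a, 4.24 for miR-26a, 4.25 for miR-24-3p and 9.85 for miR-423-5p, with a median of 3.71, and miR-16 was in place 61 of 104. miR-191 differed by less than miR-16 under all 5 scalings, though on RPM by 4.28 against 4.31. The number of miR-16 counts per miR-191 count was 0.395 in serum, 0.106 in plasma, 0.0181 in semen, at most 0.108 in urine and 0.136 in bile. Per let-7a count it was 0.146 in serum, 0.121 in plasma, 0.00388 in semen, at most 0.0296 in urine and 0.0178 in bile. Only relative to miR-24-3p were serum (0.149), semen (0.165) and bile (0.207) close, with plasma at 0.0196.

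Blood cell miRNAs were also highest in serum by CPM, and their part in the miR-16 values was not tested. The summed level of the 3 erythroid names, miR-451, miR-486 and miR-144, was 102145.5 CPM in serum, 5828 CPM in plasma, 5.25 CPM in semen, 4675 CPM in urine and 4173 CPM in bile. The 8 leukocyte names summed to 21464 CPM in serum, 3613 CPM in plasma, 64.3 CPM in semen, 566 CPM in urine and 1480.4 CPM in bile, with 6 of 8 above 0 in serum, plasma and bile, 2 in semen and 1 in urine. With TMM the erythroid sum was still highest in serum (52109 against 29367 CPM in plasma), and the leukocyte sum was lower in serum than in plasma (10949.6 against 18208 CPM). These sums follow their most abundant names. In plasma miR-146a-5p gave 3836 of the 4169 leukocyte counts, and miR-451 gave 4775 of the 6724 erythroid counts. With TMM not every name shared the direction of its sum. miR-342 (2970 counts in serum, 20 in plasma) was then higher in serum, and miR-144 (26 and 40) lower. By CPM both were higher in serum, miR-342 at 6277 against 17.3 CPM and miR-144 at 54.95 against 34.67 CPM. In semen miR-451 and miR-144 were at 0 and miR-486 had 12 counts, while miR-16 had 208. Per miR-451 count there were 0.0304 miR-16 counts in serum (0.0287 to 0.0322), 0.00880 in plasma (0.00633 to 0.0119) and 0.0761 in bile (0.0695 to 0.0832), so the levels of these miRNAs did not keep a fixed proportion across the 3 fluids. In semen the ratio was at least 20.8 (11.1 at the lower counting end).

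The profile of miR-16 over the 5 fluids was compared with those of 165 other miRNAs with at least 100 counts in 1 or more libraries. The measure was the root mean square difference of centred log2 CPM, in which the scaling of the libraries cancels apart from the floor of 10 counts. At that floor miR-16, listed at 0 in urine, entered urine at 377 CPM, above its bile level of 314 CPM. Its urine value was therefore set by the floor, which brings it closer to miRNAs near 10 counts in urine. Of those named next, miR-574 was at 0 in urine and miR-126-3p and miR-20a had 14 counts each. The nearest were miR-92a (0.63), miR-126-3p (0.78), miR-20a (0.79), miR-574 (0.86) and miR-103 (0.88), against a median of 2.35 over all 165. miR-92a, for instance, had 32635 CPM in serum, 546 CPM in plasma, 1283 CPM in semen, 1923 CPM in urine and 2076 CPM in bile. Without the urine library 4 of these 5 were again among the nearest 5. With 1 CPM added and no floor, none of the 5 was; miR-16 then enters urine at 0 CPM. No other member had 100 counts in any library, so no other profile was searched.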

How the data were processed

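Exosomal small RNA of 5 fluids was sequenced, with 1 library each. A commercial isolation reagent, Trizol extraction and size selection on a gel preceded Illumina sequencing, per the labels' protocols. Per the submitters' processing notes, bcl2fastq 2.17 and the genome build Sscrofa10.2 were used. Not given in the sources used here are the read aligner, how multi-mapping reads were counted and which miRNA annotation was used, so counts of members with similar sequence are uncertain. The authors deposited a read count per mature miRNA and a normalized value. Counts divided by that value gave 1 constant per library, with no deviation above 0.00461%, so the normalized column is read as RPM, scaled to 1000000 reads of a library total of 7207788 to 10801967 reads chosen by the authors.

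From the deposited counts, CPM, exact Clopper-Pearson intervals and exact conditional binomial intervals of ratios were computed with scipy 1.17.1. With 1 library per fluid no test was made. Pairs used miRNAs with at least 100 counts in either library, a floor of 10 counts (10 because nothing lower was listed) and a limit of 2-fold. The pair calculation was tested on simulated data. Other scalings were TMM from edgeR 4.0.16, size factors from DESeq2 1.42.0, the authors' RPM, totals without the most abundant miRNA; other settings were floors, minimums and limits. The members and lists were chosen with earlier results of these data known. Named were all members, miR-103 and miR-107, partners of miR-424, common references (miR-93 was not analysed here), blood cell and fluid markers (miR-223 was not analysed here) and the 5 nearest profiles of each member with 100 counts in 3 libraries. Gene neighbours came from RefSeq of Sscrofa11.1, another build, so no coordinates are given.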

Additional observations from a re-analysis of the deposited data

How the results depend on the processing

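No paired analysis was possible because each fluid had 1 library, and for the same reason no replicate could be left out; the alternative restricted to names with the seed of miR-16 was not run. The family ratio of serum over plasma, 76.4 by CPM, came to 7.74 with TMM, 7.50 with DESeq2 size factors, 54.6 with totals without the most abundant miRNA, 21.3 on the authors' RPM, at least 3.86 without miR-16, and 32.4 with names listed at 0 taken as 10 counts (an alternative chosen after seeing the data). Serum over semen, 24.0 by CPM, came to 13.7, 12.9, 13.8 and 5.06 under the same 4 scalings and 8.05 without miR-16. Serum over bile, 6.99 by CPM, came to 3.67, 4.55, 5.79 and 1.97, and 2.38 without miR-16. Plasma over semen, 0.314 by CPM, reversed to 1.77 with TMM and 1.72 with DESeq2 size factors, where miR-16 had log2 ratios of 1.18 and 1.13, and was 0.709 with names at 0 taken as 10 counts; without miR-16 plasma listed no member and no value was possible. Semen over bile, 0.291 by CPM, was 0.353 with DESeq2 size factors, 0.420 without the most abundant miRNA and 0.389 on the authors' RPM. The shifts under other scalings follow from the totals used, and the cause of the differences between totals was not tested; the values without miR-16 or with zeros at 10 counts change the counts summed.

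The number of members called in the direction of miR-16 by CPM, 1 in each of the 6 pairs, was 3 for serum over plasma, 3 for serum over semen, 2 for serum over bile and 4 for semen over bile both at a minimum of 10 counts and with no minimum, since fewer counts were then required; the members tested and the share of all miRNAs called stand in the report, as does miR-195, called lower in serum than in bile. It was 0 in each pair without miR-16, 0 lower in plasma than in semen with TMM or DESeq2 size factors, where miR-16 was 2-fold higher in plasma instead, and 0 for plasma over semen and semen over bile at a 4-fold limit. With names at 0 taken as 10 counts, miR-16 made up 90.0% of the family in serum, 41.2% in plasma and 73.0% in semen. Of its 5 nearest profiles, 3 were shared with a floor of 3 counts and 0 with 1 CPM added and no floor. Its log2 difference between the highest and lowest fluid, 6.15, was 4.02 with TMM, 3.93 with DESeq2 size factors, 5.66 without the most abundant miRNA and 4.31 on the authors' RPM. The order of serum above bile above semen held for miR-16 under all 5 scalings. Ratios within a library cannot change with the scaling, because the library total cancels. Depth limits urine most, where 10 counts are 377 CPM.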
